A study of Mus musculus with 6 samples.

Results

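Transcriptional regulators of the presomitic mesoderm and tail bud were followed in mouse embryos that lack or retain normal Dll3, a Notch ligand gene needed for regular somite formation. The group consists of 8 genes chosen by name: T, Tbx6, Msgn1, Mesp1, Cdx1, Cdx2, Cdx4 and Evx1. The platform annotation gave 7 of them a probe set assigned to that gene alone, 8 probe sets among the 22626 tested, because Cdx2 had a pair and the others had 1 each. No probe set carried the symbol T, so T was not analysed here. Pools of C57BL/6 embryos at 9.5 days post coitum, either wild-type (3 pools) or homozygous for the neo insertion allele of Dll3 (Dll3neo/neo, also written Dll3-tm1Rbe; 3 pools), were hybridised to Affymetrix MOE430A arrays with 1 array per pool. How many embryos made up a pool is not stated here, and p-values measure the spread between these pools only. The tissue reached from the otic placode back to the border between the presomitic mesoderm and the newest somite, and heart, endoderm and allantois were removed. The presomitic mesoderm and tail bud, where these genes are best known, therefore lay behind the posterior cut.

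In the embryo, trunk and tail are laid down by progenitors of the tail bud, which release cells into the presomitic mesoderm, the unsegmented tissue from which somites bud off in a steady rhythm. Wnt and FGF signals from the posterior end keep the progenitors going and switch on T, the Cdx genes, Tbx6 and Msgn1, while Mesp genes come on in the anterior presomitic mesoderm, where Notch signalling and Tbx6 set the next border. Most of these transcripts fade as a somite forms, but some persist in other tissues of the trunk: T in the notochord, Cdx genes in the posterior neural tube and hindgut, and Evx1 in a class of spinal interneurons.

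Each deposited value was a linear ratio to a reference of its own probe set, so a value can be compared between pools but not between genes. The ratio holds no signal level, and whether a transcript was above background cannot be read from it; the labelled tissue cannot be checked by the presence of its markers either. All 8 member probe sets had a median of 1 over the 6 pools. Dll3 itself was at 0.96 to 1.03 in wild-type and 0.941 to 1.01 in mutant pools, with groups that overlapped. The place of its probe set in the disrupted gene is unknown here, so this does not check the labels. Xist, the RNA that coats the inactive X in female cells, was higher in the mutant pools by 0.80 to 1.96 on the log2 scale over its 3 probe sets, so the pools differed in their mix of sexes. A sex score, Xist minus the mean of 3 Y-linked genes, ran from -1.73 to -0.085 in wild-type and from 0.045 to 0.81 in mutant pools. The score did not overlap between the genotypes, so a fit with it as a covariate separates sex mix and genotype poorly.

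None of the 8 member probe sets differed between genotypes in limma at an adjusted p of 0.05, as was so for 0% of all probe sets tested. No member had an unadjusted p under 0.05 either, against 2.63% of all probe sets. The smallest unadjusted p was 0.206 (Tbx6) and the largest 0.959 (Mesp1), and every adjusted p was 1. Of the 8 probe sets, 5 were lower and 3 higher in the mutant pools, beside 48.5% lower over all probe sets. The groups did not overlap for 1 of the 8 (Evx1), a count to be read against 7.46% of all probe sets. The median difference over the 7 genes was -0.10 on the log2 scale, and 0.0035 over all 12393 genes. Without mutant replicate 2 the median over the 7 genes was -0.00107, and with the sex mix of the pools as a covariate it was -0.0372. The value with the covariate does not separate sex mix from genotype, since the sex score nearly follows genotype. The 95% intervals of the 8 log2 differences ran from -0.37 at the lowest bound to 0.38 at the highest, and all 8 included 0. In such bulk tissue, fewer cells that make a transcript and less transcript per cell cannot be told apart.

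**Figure D1:**
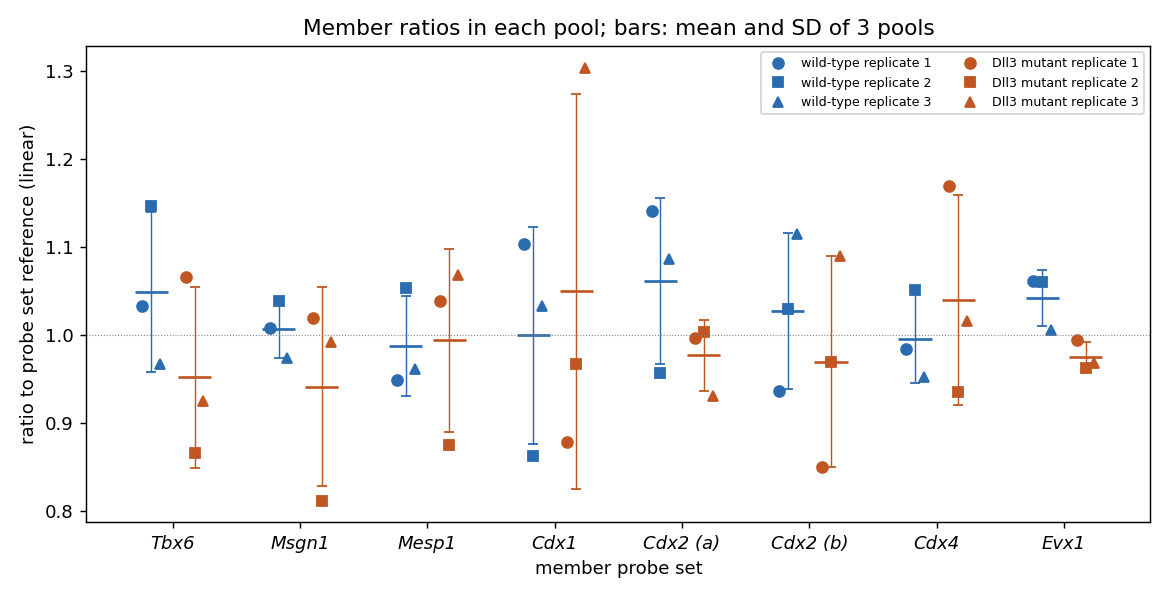
Linear ratio of each member probe set in the 3 wild-type pools (blue) and the 3 Dll3 mutant pools (orange), with marker shape giving the replicate number and bars the mean and SD of 3 pools. Cdx2 (a) is 1422074_at and Cdx2 (b) is 1422075_at. Evx1 was the only probe set without overlap, and mutant replicate 2 (orange square) was the lowest pool for Tbx6, Msgn1, Mesp1, Cdx4 and Evx1.

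Tbx6 encodes the T-box factor that commits cells to paraxial mesoderm and works with Notch to switch on Mesp2 at the coming border. Its probe set (1449868_at) had ratios of 1.03, 1.15 and 0.967 in wild-type replicates 1 to 3 and of 1.07, 0.866 and 0.925 in mutant replicates 1 to 3. The groups overlapped, since mutant replicate 1 lay above wild-type replicates 1 and 3. Wild-type pools averaged 1.05 ± 0.0911 (SD, n = 3) and mutant pools 0.952 ± 0.103 (SD, n = 3). In limma the log2 difference was -0.14 (SE 0.105, 95% interval -0.37 to 0.09, adjusted p = 1), a ratio of geometric means of 0.907 with bounds of 0.772 and 1.06. The value leaned on single pools: the log2 difference was -0.0752 or -0.0756 with replicate 2 of the wild-type or of the mutant pools left out, and -0.23 without mutant replicate 1. With a covariate for the sex mix (Xist minus the mean of 3 Y-linked genes in each pool) it was -0.0372, and with array weights in limma it was -0.23 (adjusted p = 0.631).

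Msgn1 encodes mesogenin, a bHLH factor that drives progenitors out of the tail bud and into presomitic mesoderm. Its ratios (1421798_at) were 1.01, 1.04 and 0.974 in wild-type and 1.02, 0.812 and 0.992 in mutant pools. Only mutant replicate 2 left the wild-type range. The means were 1.01 ± 0.0325 (SD, n = 3) and 0.941 ± 0.113 (SD, n = 3). In limma it differed by -0.10 on the log2 scale (SE 0.103, 95% interval -0.33 to 0.12, adjusted p = 1). Without mutant replicate 2 the difference was -0.00107, and with the sex mix as a covariate it was -0.0305. It was -0.166 without mutant replicate 1, -0.169 without both pools numbered 3 and -0.199 with array weights (adjusted p = 0.511 in the limma fit over genes).

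Mesp1, a bHLH factor of nascent and anterior presomitic mesoderm that also marks the earliest heart progenitors, had ratios (1426557_at) of 0.949, 1.05 and 0.961 in wild-type and 1.04, 0.875 and 1.07 in mutant pools. Mutant pools lay both above and below all wild-type pools. The means were 0.988 ± 0.0569 (SD, n = 3) and 0.994 ± 0.104 (SD, n = 3). The log2 difference of 0.0053 (SE 0.1, 95% interval -0.22 to 0.23, adjusted p = 1 in limma) had no stable sign: leaving out mutant replicate 2 gave 0.0945 and leaving out mutant replicate 3 gave -0.0493, and it was also below 0 without mutant replicate 1 (-0.0294), wild-type replicate 1 (-0.0227) or wild-type replicate 3 (-0.0137), without both pools numbered 3 (-0.0682), with quantile normalization (-0.0154) and with array weights (-0.0745).

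The 250 bases before the annotated start of these 3 genes are given here from RefSeq (GRCm38.p6), 5′ to 3′ on the strand of the gene. Capitals mark matches on either strand to 4 motifs: GGTGTG, the core of the T-box site, CTTTGA, the core of the site of the Wnt effectors TCF and LEF, TTTATG, a caudal site bound by Cdx factors, and GTGGGAA, bound by the Notch effector RBPJ. No match overlapped another.

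Tbx6, chr7:126781233-126781482, plus strand: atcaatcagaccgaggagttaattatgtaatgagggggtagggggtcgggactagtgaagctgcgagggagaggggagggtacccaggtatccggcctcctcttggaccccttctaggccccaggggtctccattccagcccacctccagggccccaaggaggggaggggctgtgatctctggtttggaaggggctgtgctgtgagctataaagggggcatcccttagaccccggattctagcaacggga
Msgn1, chr12:11208949-11209198, minus strand: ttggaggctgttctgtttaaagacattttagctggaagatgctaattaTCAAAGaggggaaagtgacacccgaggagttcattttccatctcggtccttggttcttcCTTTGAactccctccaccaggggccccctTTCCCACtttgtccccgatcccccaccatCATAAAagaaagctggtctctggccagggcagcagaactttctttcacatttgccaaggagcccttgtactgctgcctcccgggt
Mesp1, chr7:79793591-79793840, minus strand: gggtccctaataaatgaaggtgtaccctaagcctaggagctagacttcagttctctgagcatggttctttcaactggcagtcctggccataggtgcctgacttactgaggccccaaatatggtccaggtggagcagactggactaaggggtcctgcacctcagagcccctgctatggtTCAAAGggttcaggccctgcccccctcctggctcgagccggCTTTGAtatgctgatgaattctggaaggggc

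Msgn1 and Mesp1 each held 2 matches to CTTTGA, 202 and 143 bases before the start of Msgn1 and 72 and 31 bases before that of Mesp1. At least 1 such match occurred in 13.8% of the 32851 RefSeq windows of the same length and 2 or more in 1.37%. Msgn1 also held 1 match to GTGGGAA (5.42% of windows hold one) at 114 bases and 1 to TTTATG (10.8%) at 85 bases. GGTGTG, present in 16.3% of windows, was in none of the 3, and Tbx6 matched no motif. Among the other members with a listed window, not shown here, only Evx1 held GGTGTG, with 1 match 39 bases before the start. T held 1 match to CTTTGA at 234 bases and 1 to TTTATG at 178 bases. Cdx2 and Cdx4 matched no motif. A match is a string of letters, not a bound site, and the arrays measured no binding.

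The Cdx genes are the mammalian caudal genes, homeobox factors that act downstream of Wnt and FGF to extend the axis and to set the posterior Hox genes. Cdx1 (1449582_at) had ratios of 1.10, 0.863 and 1.03 in wild-type and 0.879, 0.967 and 1.30 in mutant pools. Mutant replicate 3 was far above the others, and the other mutant pools fell inside the wild-type range. Of the members Cdx1 varied most: its SD over the 6 pools was 0.22 on the log2 scale, at percentile 94.2 of all probe sets. The log2 difference was 0.06 (SE 0.145, 95% interval -0.26 to 0.38, adjusted p = 1 in limma). It turned negative without mutant replicate 3 (-0.11), without wild-type replicate 2 (-0.0447), without both pools numbered 3 (-0.0817) and with the sex mix as a covariate (-0.24).

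Cdx2, which is shared between the posterior axis and the hindgut, was measured by a pair of probe sets that did not follow each other. The first (1422074_at) was at 1.14, 0.957 and 1.09 in wild-type and 0.997, 1.003 and 0.931 in mutant pools, and the second (1422075_at) at 0.937, 1.03 and 1.11 in wild-type and 0.85, 0.97 and 1.09 in mutant pools. In wild-type replicate 1 the first was at its highest while the second was below every pool but mutant replicate 1. Their correlation over the 6 pools was -0.15. With all 6 pools the log2 differences had the same sign, -0.12 (SE 0.094, 95% interval -0.32 to 0.09) and -0.09 (SE 0.11, 95% interval -0.33 to 0.16). Without mutant replicate 1 the first was at -0.13 and the second at 0.0049. Averaged per gene over all 6 pools the difference was -0.10 (SE 0.0773, adjusted p = 0.9997 in the limma fit over genes). This average ran from -0.14 (wild-type replicate 2 left out) to -0.0618 (wild-type replicate 3 left out) and -0.0635 (mutant replicate 1 left out), and array weights gave -0.0585.

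Cdx4, the X-linked caudal gene and the one most restricted to the posterior end, had ratios (1421552_at) of 0.984, 1.05 and 0.952 in wild-type and 1.17, 0.935 and 1.02 in mutant pools. The highest and the lowest pool were both mutant. The log2 difference was 0.06 (SE 0.101, 95% interval -0.16 to 0.28, adjusted p = 1 in limma). It was -0.0295 without mutant replicate 1, -0.0322 with array weights and 0.13 without mutant replicate 2. With the sex mix as a covariate it was 0.17, and whether the sex mix has a part in the value was not tested beyond this.

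Evx1, an even-skipped homeobox gene of the tail bud and of spinal interneurons, was at 1.06, 1.06 and 1.01 in wild-type and 0.994, 0.963 and 0.968 in mutant pools (1421627_at). Every mutant pool was lower than every wild-type pool, with 0.994 and 1.01 as the nearest values. The means were 1.04 ± 0.0315 (SD, n = 3) and 0.975 ± 0.0166 (SD, n = 3). The log2 difference of -0.10 (SE 0.0815, 95% interval -0.28 to 0.08) had an unadjusted limma p of 0.263 and an adjusted p of 1. The SD of Evx1 over the 6 pools, 0.06 on the log2 scale, was at percentile 8.66 of all probe sets, and limma draws so small a spread toward that of the other probe sets. The difference kept its sign in all 16 alternative settings, between -0.12 and -0.083. Since the groups did not overlap, neither leaving out pools nor weighting arrays could have turned the sign. The replicate block, the variance trend, the probe set filters and the most variable probe set left the difference at -0.096. Only the scalings and the sex mix covariate could have turned it. Quantile scaling gave -0.11, median scaling -0.10 and the covariate -0.12.

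**Figure D2:**
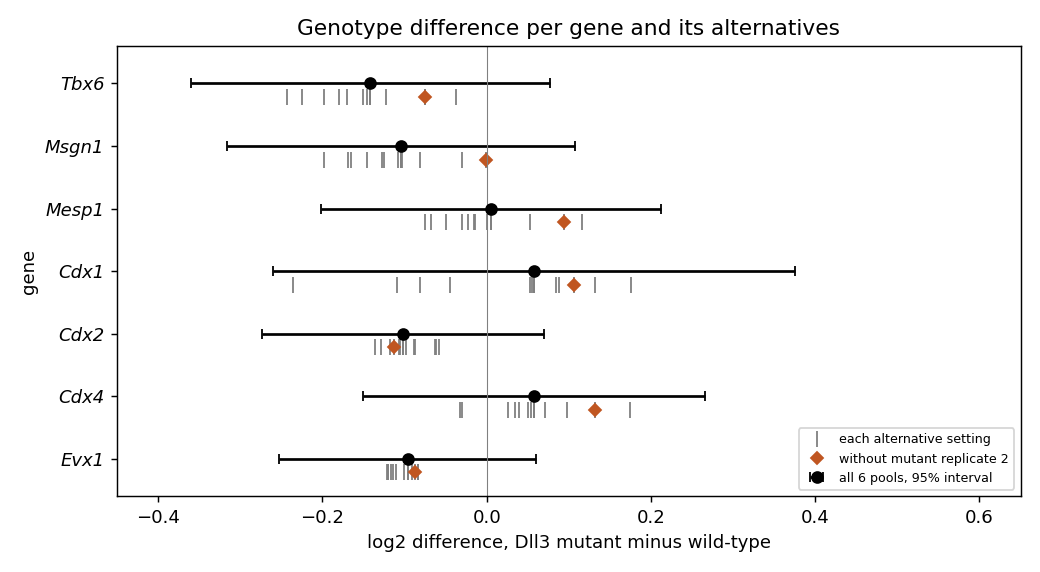
Log2 difference between mutant and wild-type pools for each of the 7 genes in the fit over genes (black point with 95% interval), with the value under each alternative setting as a grey tick and the value without mutant replicate 2 as an orange diamond. All 7 intervals cross 0, and leaving out mutant replicate 2 moved Msgn1 from -0.10 to -0.00107 and Mesp1 from 0.0053 to 0.0945.

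The mutant pools were spread among themselves. Mutant replicate 2 was the lowest of the 6 pools for 5 of the 7 genes (Tbx6, Msgn1, Mesp1, Cdx4 and Evx1), while it was the lowest for 12.8% of all genes. The pool was not named beforehand. Tbx6, Msgn1, Mesp1 and Cdx4 also correlated with each other, at 0.59 to 0.82, so the 5 genes are not separate observations. All 7 were below a ratio of 1 there, with a mean of -0.13 on the log2 scale; the other 5 pools had means from -0.0029 to 0.0486. In that pool 51.1% of all genes were below 1, within the 47.9% to 58.3% seen over the 6 pools. The cause of the low values in this pool was not tested. The posterior cut ran along the border of the tissue in which these genes are best known, and where it fell in each embryo is not stated here.

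Over the 6 pools, Tbx6, Msgn1, Mesp1 and Cdx4 had positive correlations in all 6 of their pairs, from 0.59 (Tbx6 with Mesp1) to 0.82 (Msgn1 with Mesp1, and Tbx6 with Msgn1). Evx1 was close to Tbx6 (0.81) and Msgn1 (0.62) and less so to Mesp1 (0.18) and Cdx4 (0.12). Cdx1 and Cdx2 stood apart from them. Cdx1 was at -0.53 with Tbx6 and -0.41 with Cdx4, and the second Cdx2 probe set was at -0.59 with Cdx4. These are descriptions over 6 pools that share their arrays, mutant replicate 2 lies at the low end for each of the 4 genes named first, and the members were examined together because earlier results were known.

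**Figure D3:**
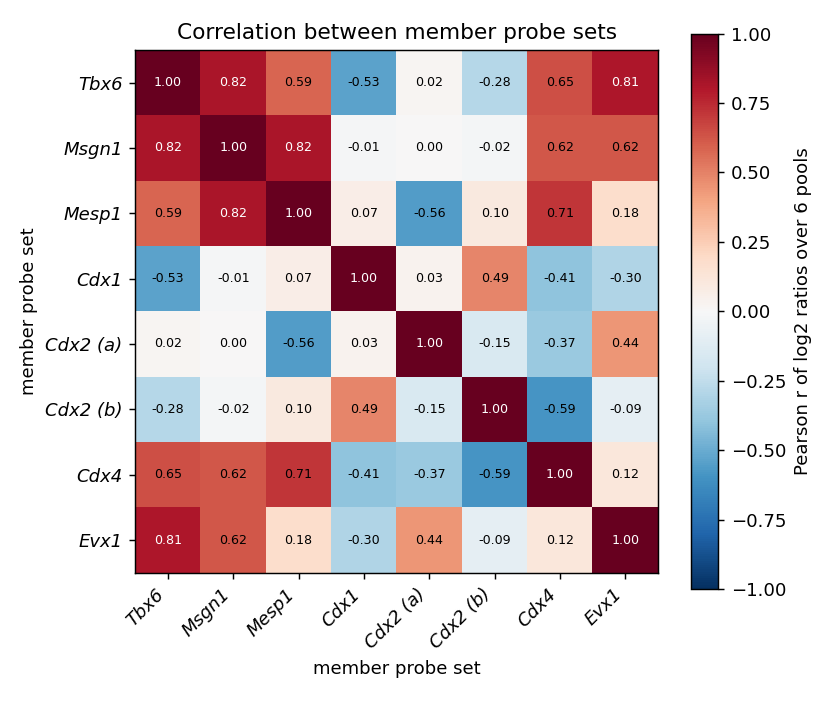
Pearson correlation of the log2 ratios over the 6 pools for every pair of the 8 member probe sets, from -1 (blue) to 1 (red), with Cdx2 (a) and (b) as in the plot of ratios by pool. Tbx6, Msgn1, Mesp1 and Cdx4 have values from 0.59 to 0.82 with each other, and the pair for Cdx2 has -0.15.

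The genes outside the group whose levels were most like that of Tbx6 over the 6 pools were Pcdhb10, a protocadherin gene (r = 0.996), Myoz3, which encodes a muscle Z-disc protein (r = 0.987), and Krt86, a hair keratin gene (r = 0.982). At a lower bar, 156 of 12386 genes, or 1.26%, had an r above 0.9 with Tbx6. These too are descriptions over 6 pools. For the mean of the 7 genes the nearest were Eva1a (r = 0.982), Aldh8a1 (r = 0.97) and the aquaglyceroporin gene Aqp7 (r = 0.964). Of the 12386 genes, 58 were above 0.9.

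Related genes were described through 4 lists that hold 57 named genes, 50 of them measured. None passed an adjusted p of 0.05 in the fit over genes (0% of all genes did), and 3 of the 50 (6%; Fgf18, Dkk1 and Tbx4) had an unadjusted p under 0.05, beside 2.67% of all genes. Among 11 measured signals of the tail bud and presomitic mesoderm, 4 were lower and 7 higher (median 0.03). Fgf18, an FGF ligand gene, was at 1.19, 0.982 and 1.21 in wild-type and 0.996, 0.887 and 1.004 in mutant pools, a log2 difference of -0.23 (SE 0.0982, adjusted p = 0.9997). Fgf8, the main FGF of the tail bud, was at 0.14 (SE 0.119). Among 11 transcription factors of the same tissues 8 were lower and 3 higher (median -0.06), none with an unadjusted p under 0.05. Hes3, a Hes family repressor gene, was at 0.11 (SE 0.0741), and Snai1, the Snail repressor gene that lowers cell adhesion, at -0.13 (SE 0.0866).

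Genes that report Notch, Wnt and FGF signalling in presomitic mesoderm were higher for 10 of 15 and lower for 5 (median 0.06). Their mean log2 level was -0.0431 to -0.0133 in wild-type and -0.0012 to 0.0385 in mutant pools. The list mean thus did not overlap between the genotypes, the only such case among the 9 lists. With 3 pools against 3 and no difference, such a separation has a probability of 0.1 for each list, so 1 of 9 is near that share. Of the 15 genes in the list 1 (Dkk1) was without overlap by itself, near the 7.46% of all probe sets. The secreted Wnt inhibitor gene Dkk1 was at 0.959, 0.942 and 0.886 in wild-type and 1.09, 1.06 and 1.04 in mutant pools, without overlap (log2 difference 0.20, SE 0.0724, adjusted p = 0.9997). Nkd1, a feedback inhibitor of Wnt signalling, was at 0.20 (SE 0.101). Of 13 other T-box genes 7 were lower and 6 higher (median -0.0015). Tbx4, known from the allantois and hindlimb field, was at 1.19, 1.35 and 0.973 in wild-type and 1.003, 0.827 and 0.997 in mutant pools (log2 difference -0.31, SE 0.124, adjusted p = 0.9997), with wild-type replicate 2 highest and mutant replicate 2 lowest as for Tbx6. Tbx21, the T-box gene of T helper cells, was at -0.17 (SE 0.0974).

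**Figure D4:**
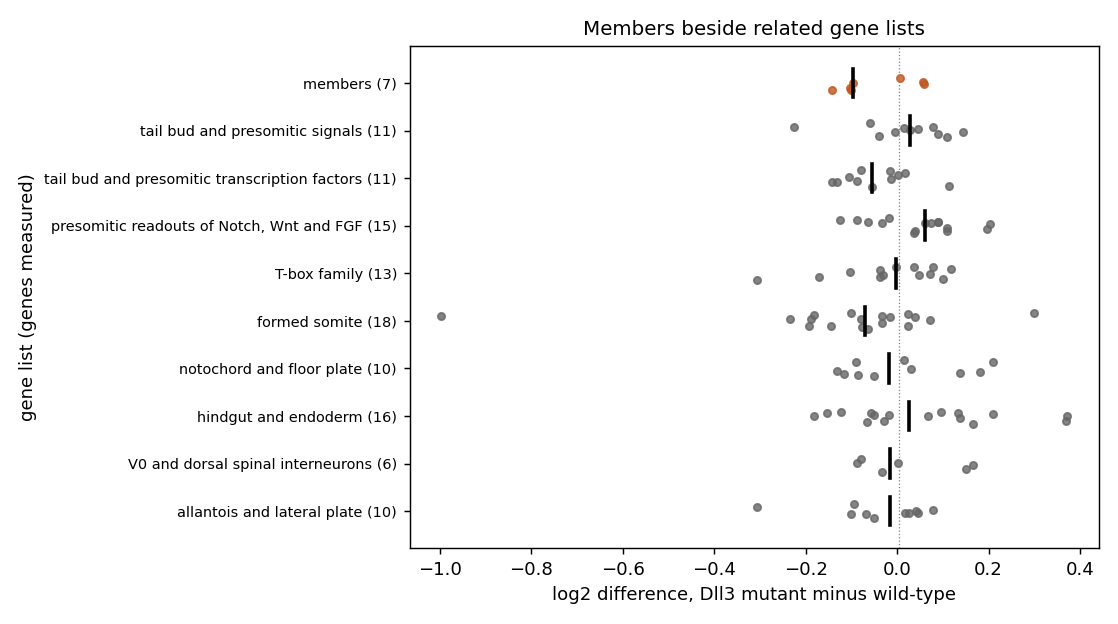
Log2 difference between mutant and wild-type pools for each measured gene of the members (orange) and of the 9 related or marker lists (grey), with a black bar at the median of each list and a dotted line at the median over all genes, 0.0035. The 7 members lie between -0.14 and 0.06, inside the spread of the other lists, and Uncx at -0.998 is the outlying point among formed somite genes.

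Markers of tissues that share these genes or could vary with the dissection were followed in 5 lists, with 57 genes measured, and the mean level of each list overlapped between the genotypes. None of the 57 passed an adjusted p of 0.05, and 5 (8.77%; Uncx, Myog, Foxj1, Rbp4 and Tbx4) had an unadjusted p under 0.05, against the 2.67% of all genes. Formed somite genes were lower for 13 of 18 (median -0.07), notochord and floor plate genes for 5 of 10 (median -0.02), hindgut and endoderm genes for 8 of 16 (median 0.03), spinal interneuron genes for 3 of 6 (median -0.02) and allantois and lateral plate genes for 5 of 10 (median -0.02). The mean log2 level of 18 formed somite genes ran from 0.0014 to 0.072 in wild-type and from -0.15 to 0.04 in mutant pools, with Uncx, a gene of the caudal somite, at -0.998 (SE 0.124, adjusted p = 0.116) and Myog, a muscle regulator gene, at 0.30 (SE 0.0799, adjusted p = 0.9997) in the limma fit over genes. For 10 notochord and floor plate genes, the tissue where T persists, the ranges were -0.08 to 0.05 and -0.06 to 0.05, with the cilia regulator gene Foxj1 at 0.18 (SE 0.0772) and the keratin gene Krt8 at 0.14 (SE 0.09). For 16 hindgut and endoderm genes they were -0.12 to 0.13 and -0.12 to 0.13, with Rbp4, the retinol carrier gene, at 0.37 (SE 0.122) and the pioneer factor gene Foxa1 at 0.37 (SE 0.19). Mutant replicate 2 had the lowest mean of the endoderm list (-0.123, with wild-type replicate 2 next at -0.1185). It was the lowest pool for 6 of its 16 genes, beside 12.8% of all genes.

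Spinal interneuron genes, relevant to Evx1, were measured for 6 of 9 and had means from -0.13 to 0.06 in wild-type and from -0.06 to 0.13 in mutant pools, with Lmx1b at 0.15 (SE 0.0843) and Lhx5 at 0.17 (SE 0.138), both LIM homeobox genes. The 10 allantois and lateral plate genes had means from -0.09 to 0.09 and from -0.09 to 0.05, with Tbx4 as above and the GATA factor gene Gata6 at -0.10 (SE 0.0937). Over the 5 marker lists mutant replicate 2 was the lowest pool for 15 of 57 genes (26.3%), and over the 4 lists of related genes for 7 of 50 (14%). The share over all genes was 12.8%, so low values in this pool were not particular to the members. The part of these tissues in the low member values of that pool was not tested.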

How the data were processed

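The deposited table, as the authors left it, gives for 22690 probe sets and 6 pools a linear ratio to a reference that differs by probe set. That reading rests on the values: the median over the pools is 1 (within 0.0015) in 93.4% of rows and lower in 1497. Per the submitters' processing notes RMA and MAS5 were used, with no version or role stated, and the scaling between arrays is not known. Control probe sets (64) were left out. The log2 ratio, with no pseudocount, was tested in limma 3.58.1 (R 4.3.3) by lmFit and eBayes without a trend, with genotype as the only term, two-sided, and Benjamini-Hochberg over all 22626 probe sets. The fit was repeated over 12393 genes on the mean of each gene's probe sets. Genes were named where the platform annotation gave 1 gene symbol (20380 probe sets; 691 had several and 1555 none). The script was tested on simulated data.

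The text describes every member, the 2 genes of smallest unadjusted p in each list, and the 3 genes most like Tbx6 and the member mean; Lef1, Nkx1-2 and Osr1 were added after their values were seen. The members and lists were chosen with earlier results of these data known. The sex mix was scored as Xist minus the mean of Eif2s3y, Kdm5d and Uty, in log2. No permutation test was run, because 3 pools against 3 allow no exact p under 0.1; precision is limited by the number of arrays. Plots were made with matplotlib 3.10.9. Other settings tried were a replicate block, a variance trend, weights per array, quantile or median scaling, leaving out each pool or both pools numbered 3, leaving out probe sets ending in _x_at or _s_at or with a median below 1, the sex mix as a covariate, and the most variable probe set per gene.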

Additional observations from a re-analysis of the deposited data

How the results depend on the processing

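No member probe set passed an adjusted p of 0.05 in limma under any of the 15 alternatives fitted over probe sets. At an unadjusted p under 0.05 the count was 0, and 1 (Tbx6) with array weights, which gave mutant replicate 2 the largest weight (1.85) and raised the count over all probe sets from 595 to 1770 (7.82%). In the limma fit over genes, array weights gave unadjusted p of 0.0153 for Tbx6 and 0.0482 for Msgn1 (adjusted 0.488 and 0.511). Without mutant replicate 1 that fit gave Tbx6 an unadjusted p of 0.0396 (adjusted 0.90). The median log2 difference over the 7 genes was -0.10 with all pools and ranged from -0.109 to -0.00107 with single pools left out, the last without mutant replicate 2. With the sex mix as a covariate it was -0.0372, although the sex score nearly follows genotype and this fit separates them poorly. Some of the 16 alternatives could not change a sign. The replicate block and the variance trend left each difference as it was. Leaving out probe sets ending in _x_at or _s_at or with a median below 1 removed no member. Taking the most variable probe set per gene could change only Cdx2, the only member with a pair. For Evx1, whose groups did not overlap, leaving out pools or weighting arrays could not change the sign either. In the fit over genes Tbx6, Msgn1, Cdx2 and Evx1 kept their sign in all 16 alternatives. Mesp1 (0.0053) had the other sign in 7: -0.0745 with array weights, -0.0154 with quantile normalization, -0.0682 without both pools numbered 3, -0.0227 and -0.0137 without wild-type replicates 1 and 3, and -0.0294 and -0.0493 without mutant replicates 1 and 3. Without mutant replicate 2 it was 0.0945. Cdx1 (0.0576) did in 4: -0.0817 without both pools numbered 3, -0.235 with the sex mix as a covariate, -0.0447 with wild-type replicate 2 and -0.109 with mutant replicate 3 left out. Without mutant replicate 1 it was 0.175. Cdx4 (0.0579) did in 2: -0.0322 with array weights and -0.0295 without mutant replicate 1. With single pools left out its highest value was 0.132, without mutant replicate 2. Its highest over all 16 alternatives was 0.175, with the sex mix as a covariate. The cause of these changes was not tested. Deviations from the group means correlated at 0.37, -0.0249 and 0.37 between pools numbered 1, 2 and 3 over all probe sets. The pools numbered 1 and those numbered 3 were the most alike of all pairings. Wild-type replicate 2 was closest to mutant replicate 1 (0.20), so the numbers were not taken to pair the pools in the main fit. On the first principal component (42.0% of the variance), wild-type replicates 1 and 2 and mutant replicate 1 were negative. The other pools were positive, so this component did not follow genotype. With the replicate block the median stayed at -0.10 and no member had an unadjusted p under 0.05, while over all probe sets that count went from 595 to 1072. The ratios keep no signal over background, so dim probe sets could not be set apart.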

Other observations

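Mutant replicate 2 was the lowest pool for 7 of the 50 related genes (14%), near the 12.8% of all genes. It was the lowest for 15 of the 57 marker genes (26.3%). The following were picked out after their values were seen. Lef1, which encodes a nuclear effector of Wnt signalling, was at 1.06, 0.899 and 0.977 in wild-type and 1.02, 0.672 and 1.15 in mutant pools, a log2 difference of -0.08 (SE 0.167, adjusted p = 0.9997 in the limma fit over genes). Nkx1-2, a homeobox gene of tail bud progenitors, was at 1.04, 0.966 and 1.19 in wild-type and 1.002, 0.873 and 1.02 in mutant pools. Outside the tail bud lists, Osr1, a gene of intermediate and lateral mesoderm, ran from 0.728 in mutant replicate 2 to 1.22 in mutant replicate 3, with 0.864 to 1.13 in the wild-type pools.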
